A study of Homo sapiens with 4 samples.

Results

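Glutathione peroxidases and genes that set the sensitivity of a cell to ferroptosis were examined by RNA-seq in a renal carcinoma line with and without VHL. They were chosen by gene symbol from a list of 10 (GPX1, GPX3, GPX4, GPX7, GPX8, ACSL3, ACSL4, LPCAT3, AIFM2 and AGPS), of which 8 were read from the table of 12912 genes, each in 1 row. GPX1 and GPX7 were not analysed here. 786-O is a human line of clear cell renal cell carcinoma (ccRCC) that lacks functional VHL. 786-O-Ctrl is described by the genotype wild type (VHL-null), and 786-O-VHL is the subline in which VHL was restored by a retroviral vector for HA-tagged VHL. The sample titles of both sublines carry TR, which the study's methods use for a triple reporter of GFP, luciferase and thymidine kinase. Both grew in RPMI1640 with serum and antibiotics. Cells of 786-O-Ctrl are called VHL-null and those of 786-O-VHL are called VHL-restored. There were 2 RNA-seq libraries per subline. Each group is 1 transduced subline, and separate cultures are not described for the duplicates, so the p-values measure only the spread between these libraries.

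Ferroptosis is a form of cell death in which iron drives the peroxidation of polyunsaturated phospholipids in membranes. ACSL4 and LPCAT3 load polyunsaturated fatty acids into phospholipids and so supply its substrate, AGPS acts in the synthesis of ether lipids, and ACSL3 activates fatty acids that include the monounsaturated ones, which protect. GPX4 reduces lipid hydroperoxides with glutathione, and AIFM2 (also called FSP1) reduces coenzyme Q at the plasma membrane as a defence that does not use glutathione. ccRCC cells are known for their sensitivity to loss of GPX4.

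The counts summed to between 2807779 and 22141263 per library, and the shallowest was 786-O-VHL replicate 1. The libraries of VHL-null cells share a replicate number in the table, so they are told apart as the deeper one and the shallower one. VHL mRNA averaged 43.4 ± 0.741 CPM in VHL-null and 171 ± 10.5 CPM in VHL-restored cells (SD, n = 2 each). CPM are counts relative to the size of the library, scaled by the TMM method. A count of 0 allows up to 3 counts, or 1.02 CPM in 786-O-VHL replicate 1 and at most 0.199 CPM in the other libraries, for counting error only. Of a list of 10 markers of renal epithelium and ccRCC, all were measured. Their summed level was 3707 to 3728 CPM in VHL-null cells and 2148 to 2317 CPM in VHL-restored cells. PAX8 and KRT8 were well detected, and NDUFA4L2 was between 0.332 and 2.73 CPM. The markers did not move together. VIM, CA12, KRT8, KRT18, PAX8 and PAX2 were lower in both VHL-restored libraries than in both others. CDH6, NNMT and NDUFA4L2 were higher, and LHX1 overlapped. The measured markers of leukocytes (1 of 6), endothelium (2 of 4) and fibroblasts and muscle (3 of 6) summed to at most 1.02, 0.760 and 17.8 CPM in a library, without a gap between the groups.

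The members were read from the edgeR quasi-likelihood test over 12335 genes, with an FDR (Benjamini-Hochberg) under 0.05 as the threshold. GPX4 rose, and GPX8, AIFM2, ACSL3, LPCAT3 and ACSL4 fell in VHL-restored cells. GPX3 and AGPS did not pass. All 8 passed the filter on low counts. In the same test 64.5% of all genes passed, 32.6% as higher and 31.9% as lower, so that the share of members that passed (75.0%) is to be read against a high background. Not 1 of the 8 differed by more than 4-fold at an FDR under 0.01, and 4.46% of all genes did. The median log2 fold change (VHL-restored over VHL-null) was -0.36 over the members and 0.017 over all genes tested, and the median absolute log2 fold change was 0.58 against 0.43. The 2 groups did not overlap for any member, which held for 80% of all genes. In bulk RNA, fewer cells with a transcript and less of it per cell cannot be told apart. With 2 libraries against 2, a two-sided exact permutation test of a single value cannot go below 0.333.

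**Figure D1:**
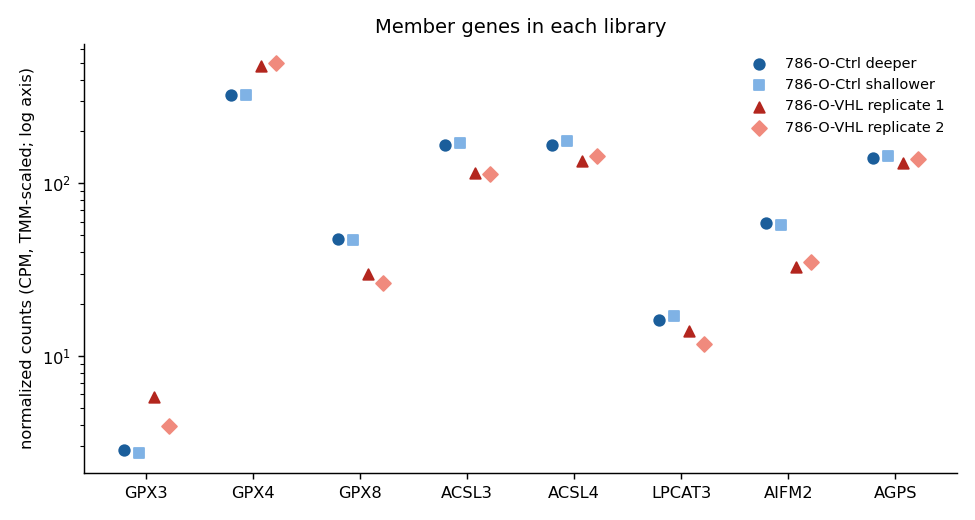
Normalized counts (CPM, log axis) of the 8 member genes in each of the 4 libraries; each point is 1 library. GPX4 is the most abundant member, near 324 CPM in 786-O-Ctrl and 488 CPM in 786-O-VHL, and GPX3 the least.

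GPX4 (ENSG00000167468.16) lies on chromosome 19 of GRCh37 from 1103981 to 1106790 (plus strand). In VHL-null cells its mRNA was at 325 CPM in the deeper library and 323 CPM in the shallower one, and in VHL-restored cells at 480.3 CPM in replicate 1 and 496 CPM in replicate 2. Both VHL-restored libraries lay above both VHL-null libraries, and the gap was far larger than the spread within either group. The mean went from 324 ± 1.29 to 488 ± 10.7 CPM (SD, n = 2 each), or up by 50.4%. The log2 fold change was 0.59 with a standard error (SE) of 0.0606 and an edgeR FDR of 1.54e-09. No annotated gene overlaps GPX4.

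GPX8 (ENSG00000164294.14), a membrane protein of the endoplasmic reticulum, lies on chromosome 5 from 54455995 to 54463125, inside CDC20B on the opposite strand but with no shared exon. It was at 47.4 and 47.2 CPM in VHL-null cells and at 29.9 and 26.3 CPM in 786-O-VHL replicates 1 and 2. GPX8 and GPX4 thus moved in opposite directions. Its means were 47.3 ± 0.146 and 28.1 ± 2.51 CPM (SD, n = 2 each), with a log2 fold change of -0.80 (SE 0.0972, edgeR FDR = 3.58e-08).

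GPX3 (ENSG00000211445.12), the secreted peroxidase of plasma that kidney tubules produce, lies on chromosome 5 from 150400152 to 150408549. In VHL-null cells the deeper library held 60 counts of it (2.85 CPM) and the shallower one 41 (2.72 CPM). In VHL-restored cells replicate 1 held 17 counts (5.77 CPM) and replicate 2 held 66 (3.92 CPM). Both VHL-restored values were above both others, but the 17 counts of replicate 1 have an exact Poisson interval (95%, counting error only) of 3.36 to 9.23 CPM. The log2 fold change was 0.62 (standard error 0.286, 95% interval 0.039 to 1.21), and the edgeR FDR of 0.0573 missed the threshold. It passed with limma-voom (adjusted p = 0.0488) and with library totals alone (edgeR FDR = 0.0218), and leaving out 786-O-VHL replicate 2 gave a value of 1.04 on the log2 scale.

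AIFM2 (ENSG00000042286.15), the coenzyme Q reductase, lies on the minus strand of chromosome 10 from 71857979 to 71892690. It was at 59.2 and 57.1 CPM in VHL-null cells and at 32.6 and 35.2 CPM in VHL-restored cells, with the groups far apart. The means were 58.1 ± 1.47 and 33.9 ± 1.87 CPM (SD, n = 2 each), and the log2 fold change was -0.75 (SE 0.0866, edgeR FDR = 1.58e-08). The level of AIFM2 mRNA thus fell while that of GPX4 rose, and the ratio of GPX4 to AIFM2 within a library, which does not depend on how libraries are scaled to each other, was 5.50 and 5.67 in VHL-null cells and 14.8 and 14.1 in VHL-restored cells. On the log2 scale that ratio differed by 1.37 (two-sided exact permutation p = 0.333, the smallest possible). Since both genes separated the groups, in opposite directions, that p was already fixed and adds no support. MACROH2A2, not analysed here, shares exon sequence with AIFM2 on the opposite strand, and no strand setting of the counting is stated.

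**Figure D2:**
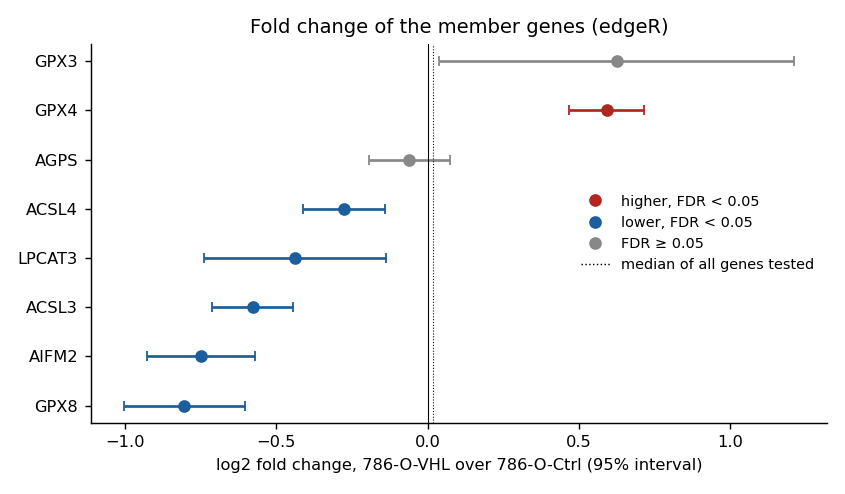
Log2 fold change of each member gene with a 95% interval derived from the F statistic of the edgeR test. The dotted line is the median of all genes tested. GPX4 stands alone as higher, 5 genes are lower, the interval of AGPS includes 0, and GPX3 did not pass after adjustment over all genes.

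The promoters of GPX4, which rose, and of AIFM2 and GPX8, which both fell, are shown because these mRNAs moved in opposite directions. They are the 250 bases before the RefSeq transcription start (GRCh38.p14), read 5′ to 3′ on the strand of the gene. Capitals mark ACGTG or GCGTG, the core letters of the hypoxia response element to which HIF binds, and TGACNNNGC, the core of the antioxidant response element to which NFE2L2 binds, searched on both strands.
The GPX4 sequence is the first of 3 windows for this gene, chr19:1103744-1103993 on the plus strand. That of AIFM2 is chr10:70132826-70133075 on the minus strand, and that of GPX8 is chr5:55159921-55160170 on the plus strand.
GPX4: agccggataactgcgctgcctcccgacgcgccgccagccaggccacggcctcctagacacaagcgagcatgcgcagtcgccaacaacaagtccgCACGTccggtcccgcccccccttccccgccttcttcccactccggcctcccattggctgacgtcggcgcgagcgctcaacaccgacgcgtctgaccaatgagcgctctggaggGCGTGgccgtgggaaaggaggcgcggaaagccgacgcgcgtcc
AIFM2: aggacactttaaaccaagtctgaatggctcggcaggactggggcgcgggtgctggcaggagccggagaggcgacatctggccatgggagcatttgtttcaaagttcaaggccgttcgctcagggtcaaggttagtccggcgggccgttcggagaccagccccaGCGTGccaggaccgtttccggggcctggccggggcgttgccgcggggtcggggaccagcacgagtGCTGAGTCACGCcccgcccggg
GPX8: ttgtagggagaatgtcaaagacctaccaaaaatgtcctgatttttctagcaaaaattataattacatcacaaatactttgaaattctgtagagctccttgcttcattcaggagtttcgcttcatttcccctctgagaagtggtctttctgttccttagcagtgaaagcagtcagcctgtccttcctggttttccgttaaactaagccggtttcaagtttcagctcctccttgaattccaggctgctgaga
The GPX4 window holds GCGTG at 39 to 43 bases before the start and ACGTG on the other strand at 152 to 156. The AIFM2 window holds GCGTG on either strand and, at 14 to 22 bases before the start on the other strand, TGACNNNGC, which overlaps one of the GCGTG matches. The GPX8 window holds none of these motifs. All 8 members were matched to RefSeq windows, and 7 held ACGTG or GCGTG in at least 1 window, including AGPS, which did not pass the test. Of 35116 windows of this length in the RefSeq table, 43.2% held ACGTG or GCGTG and 10.9% held TGACNNNGC. These shares are per window and not per gene, and GPX4 had 3 windows. Whether members hold more of the motifs than other genes was not tested. AIFM2 was the 1 member with TGACNNNGC. These matches are letters in a window and say nothing of whether a factor was bound.

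ACSL3 (ENSG00000123983.14) lies on chromosome 2 from 223725660 to 223809357, and ACSL4 (ENSG00000068366.19) on the minus strand of chromosome X from 108867473 to 108976632. Both enzymes join coenzyme A to long-chain fatty acids, ACSL4 with a preference for arachidonic and other polyunsaturated acids. ACSL3 was at 168 and 172 CPM in VHL-null cells and at 114.3 and 113.8 CPM in VHL-restored cells. Its means were 170.2 ± 3.15 and 114 ± 0.340 CPM (SD, n = 2 each), with a log2 fold change of -0.58 (SE 0.0656, edgeR FDR = 1.12e-08). ACSL4 was at 167 and 176 CPM in VHL-null cells and at 135 and 145 CPM in VHL-restored cells, closer together but still without overlap. Its log2 fold change was -0.28 (SE 0.0661, edgeR FDR = 0.00065), a fall from 172 ± 6.67 to 140.0 ± 6.62 CPM (SD, n = 2 each). Scaled by library totals alone, ACSL4 was at -0.14 and no longer passed (edgeR FDR = 0.0587), and after thinning to equal depth it was at -0.41.

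Within a library, the counts of ACSL4 over those of ACSL3 were 0.993 and 1.02 in VHL-null cells and 1.18 and 1.27 in VHL-restored cells. The ratio was higher in both VHL-restored libraries, by 0.28 on the log2 scale, at the smallest exact permutation p of 0.333. ACSL3 thus fell by more than ACSL4 in these libraries whatever the scaling, at a design that cannot reach a lower p for the difference. The ratio of GPX4 to ACSL4 was 1.95 and 1.84 in VHL-null cells and 3.55 and 3.42 in VHL-restored cells. These ratios are of counts, and their change between groups does not depend on gene length. Annotated exons of ACSL3-AS1 on the opposite strand and of KCNE5 on the same strand cover part of ACSL3 and ACSL4, respectively, and neither was analysed here. ACSL3 also has an annotated pseudogene, with which reads can be shared.

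LPCAT3 (ENSG00000111684.11), the acyltransferase that places polyunsaturated fatty acids on lysophospholipids, lies on the minus strand of chromosome 12 from 7085347 to 7125781. It was at 16.1 and 17 CPM in VHL-null cells and at 13.9 and 11.8 CPM in 786-O-VHL replicates 1 and 2. The means of 16.6 ± 0.614 and 12.8 ± 1.52 CPM (SD, n = 2 each) gave a log2 fold change of -0.44 (SE 0.147, edgeR FDR = 0.0107). This was the least secure of the calls. The 41 counts in 786-O-VHL replicate 1 have an exact Poisson interval of 9.98 to 18.9 CPM, which includes both VHL-null values. The call was lost with DESeq2 (adjusted p = 0.131), with library totals alone (-0.30 on the log2 scale) and with thinning to equal depth. It was also lost without the deeper library of VHL-null cells (-0.47), without the shallower one (-0.39) and without 786-O-VHL replicate 2 (-0.26). Exons of EMG1 on the opposite strand overlap LPCAT3, and EMG1 had a log2 fold change of -0.40 (edgeR FDR = 7.89e-05), whose part in the LPCAT3 count was not tested.

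AGPS (ENSG00000018510.15), the peroxisomal enzyme that forms the ether bond of plasmalogens, lies on chromosome 2 from 178257474 to 178431752. It was at 140.2 and 143 CPM in VHL-null cells and at 131 and 138.0 CPM in VHL-restored cells, so that the groups were close but did not overlap. The means were 142 ± 2.16 and 135 ± 4.76 CPM (SD, n = 2 each), with a log2 fold change of -0.061 (SE 0.0649, edgeR FDR = 0.421). The 95% interval of -0.19 to 0.072 bounds the size of a change in these libraries, under this scaling. With library totals alone the value was 0.072. Of the absolute log2 fold changes of all genes, 8.07% were as small as that of AGPS or smaller. NFE2L2 and TTC30B overlap exons of AGPS on the opposite strand, and NFE2L2 rose with a log2 fold change of 0.80 (edgeR FDR = 1.46e-11), while TTC30B did not pass (edgeR FDR = 0.305). Their part in the AGPS count was not tested.

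**Figure D3:**
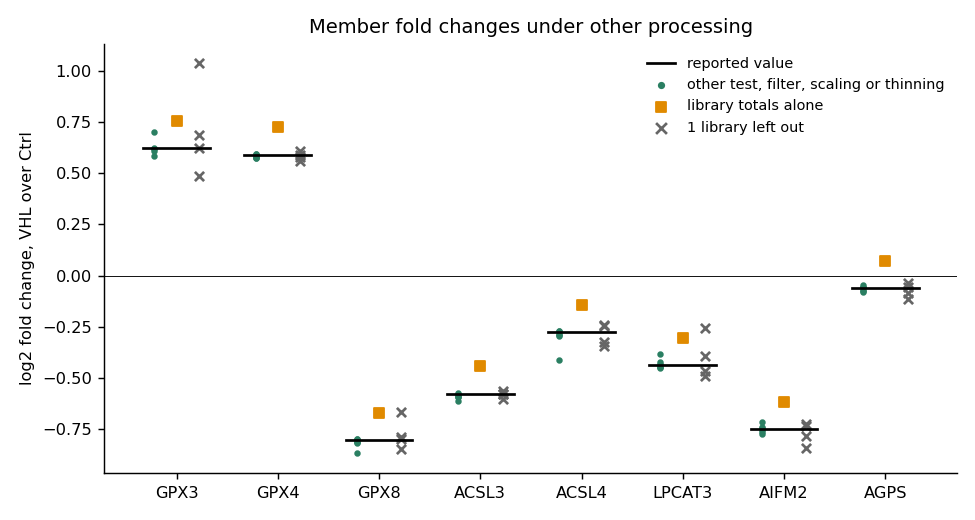
Log2 fold change of each member as reported (bars) and under other tests, filters and scalings, with library totals alone (squares) and with 1 library left out (crosses). Library totals alone move every member up, AGPS crosses 0, and GPX3 and LPCAT3 depend most on single libraries.

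Levels of different genes were compared per length, as CPM per kilobase of the canonical transcript. In VHL-null cells the order was GPX4 at 381 ± 1.52, ACSL4 at 35.1 ± 1.36, ACSL3 at 30.5 ± 0.564, AGPS at 18.6 ± 0.283, AIFM2 at 18.5 ± 0.469, GPX8 at 12.7 ± 0.0391, LPCAT3 at 7.42 ± 0.275 and GPX3 at 1.74 ± 0.0549 CPM per kilobase (SD, n = 2 each). AGPS and AIFM2 did not differ beyond their spread there. In VHL-restored cells the order was the same, with GPX4 at 573 ± 12.6, ACSL4 at 28.6 ± 1.35, ACSL3 at 20.5 ± 0.0609, AGPS at 17.6 ± 0.623, AIFM2 at 10.8 ± 0.598, GPX8 at 7.53 ± 0.672, LPCAT3 at 5.74 ± 0.680 and GPX3 at 3.02 ± 0.815 CPM per kilobase (SD, n = 2 each), and no neighbours overlapped. By this length, AIFM2 and AGPS thus stood at like levels in VHL-null cells and apart in VHL-restored cells. Over the union of all annotated exons in place of the canonical transcript, GPX4 was still highest and GPX3 lowest. In VHL-null cells ACSL3, GPX8 and AIFM2 then came within 11.3 to 11.8 CPM per kilobase, above AGPS at 9.31. In VHL-restored cells AIFM2, at 6.60, was below AGPS, at 8.84. The order in the middle and the comparison of AIFM2 with AGPS thus depend on the length used.

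The pathways around the members were described with 12 lists, from which members were left out. Of 185 tested genes, each counted once, 55 rose and 76 fell in VHL-restored cells, which is 70.8% against 64.5% of all genes. With library totals alone 73 rose and 60 fell, so the balance of directions depends on the scaling. The genes named are those with the largest fold changes, at most 2 per direction and list, among those that passed the test without overlap between groups.

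GPX4 depends on glutathione. Of 18 genes of cystine import and of the synthesis, reduction, breakdown and export of glutathione, 11 rose and 4 fell, with a median of 0.44 on the log2 scale. The 18 also include genes that make cysteine and transporters of other amino acids. The genes that rose include some of import, synthesis, breakdown and export, and other genes of synthesis fell. The counts therefore give no direction for the level of glutathione, which was not measured. CTH, which makes cysteine from cystathionine, had a log2 fold change of 1.82, and GGCT and GCLM, the latter the modifier subunit of the first enzyme of glutathione synthesis, had log2 fold changes of -0.97 and -0.83. The gene with the largest fitted change there, GGT5, had 1 and 0 counts in VHL-null cells and 2 and 12 counts in VHL-restored cells, too few for a fold to be given. Of the other enzymes that remove hydroperoxides and superoxide, 6 of 22 rose and 9 fell, with a median log2 fold change of -0.10, which was 0.029 with library totals alone. PRDX1 and TXN fell most, with log2 fold changes of -1.92 and -1.0, while MGST1, a microsomal glutathione transferase, rose with 0.80, and GSTA4 had 0.65 (edgeR FDR = 0.0447), a call that was lost with DESeq2.

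GPX4 carries selenocysteine, whose insertion needs dedicated factors. The list for selenoprotein synthesis also holds genes of selenium supply and genes with wider roles, such as SARS and RPL30. Of its 13 tested genes 4 rose and 3 fell, a share of 53.8% against 64.5% of all genes. SEPSECS, the last enzyme of selenocysteine synthesis, and SARS, the seryl-tRNA synthetase, rose with log2 fold changes of 1.5 and 1.11. LRP8, a receptor for selenoprotein P and other ligands, and TRNAU1AP fell with -3.26 and -0.75. Of 15 other selenoprotein genes 3 rose and 8 fell, with a median log2 fold change of -0.16. SEPHS2 and TXNRD1 rose with 1.04 and 0.42, and SELENOO and SELENON fell with -0.75 and -0.46. With library totals alone 4 rose and 4 fell, and without the deeper library of VHL-null cells 3 rose and 4 fell. SEPHS2 and TXNRD1 stand on more than 1 list.

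Of 10 other acyl-CoA synthetase genes, most of them outside the ACSL family of ACSL3 and ACSL4, 7 rose. Their median log2 fold change was 0.67. ACSM3 and ACSL5 had log2 fold changes of 2.09 and 1.44, from 4.45 and 4.48 CPM in VHL-null cells. ACSL1 was the 1 on the list that fell, with -0.76, from 63.2 to 37.8 CPM. Within the ACSL family, ACSL1 thus moved as ACSL3 and ACSL4 did, and ACSL5 moved the other way. LPCAT3 moved in the direction of most other acyltransferases of its kind, of which 8 of 13 fell and 1 rose, with a median log2 fold change of -0.41. LPCAT1 and AGPAT2 fell most, with log2 fold changes of -2.19 and -0.72, and TMEM164 rose by 0.17, which RLE size factors and DESeq2 did not call. Among the genes of fatty acid desaturation and elongation, 7 of 12 fell and 2 rose, with a median of -0.66. FADS2, the first desaturase of polyunsaturated fatty acid synthesis, and SCD, which makes monounsaturated fatty acids, had log2 fold changes of -2.20 and -1.55, and SCD5 and FADS3 rose with 0.97 and 0.46.

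**Figure D4:**
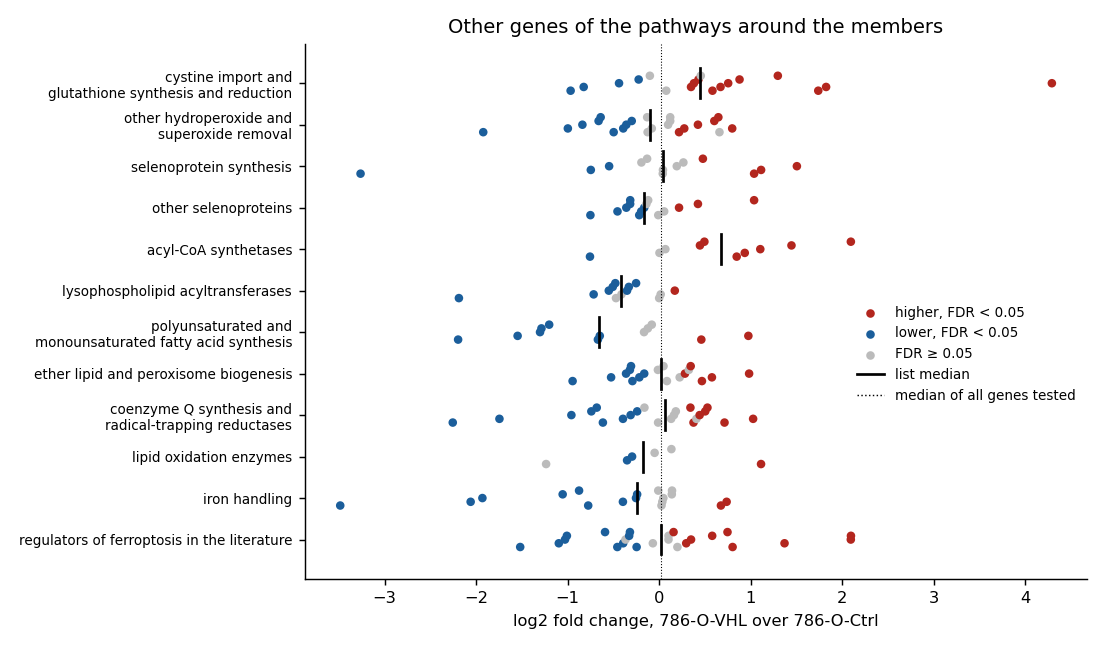
Log2 fold change of the tested genes of 12 lists around the members, with the list median (bar) and the median of all genes tested (dotted). The lists for acyl-CoA synthetases and glutathione have medians of 0.67 and 0.44, and those for fatty acid synthesis and lysophospholipid acyltransferases of -0.66 and -0.41; the point at 4.29 is GGT5, which had 1 count in 786-O-Ctrl.

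Around AGPS, 5 of 18 ether lipid and peroxisome genes rose and 8 fell, with a median log2 fold change of 0.016 that changed sign under some alternatives. PEX7 rose with 0.58, a call that DESeq2 did not give, and TMEM189, which makes the vinyl ether bond of plasmalogens, and PEX19 fell with -0.95 and -0.53. Around AIFM2, 7 of 22 genes of coenzyme Q synthesis and related reductases rose and 9 fell, with a median of 0.059 that changed sign under some alternatives. The list also holds genes outside coenzyme Q synthesis, such as DHCR7, a reductase of cholesterol synthesis. COQ8B and COQ9 rose with log2 fold changes of 1.03 and 0.71. DHCR7 fell with -2.26, and PDSS1, which begins the coenzyme Q side chain, with -1.75.

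Of 6 tested genes of lipid oxidation 1 rose and 2 fell. PLA2G6, a phospholipase, had a log2 fold change of 1.11, and POR and PEBP1 had -0.35 and -0.30. Of 17 iron genes 2 rose and 9 fell, a share of 64.7% that is no higher than the background. Their median was -0.24 on the log2 scale. The ferritin subunits FTH1 and FTL rose with 0.74 and 0.67, and CP and TFRC, the transferrin receptor, fell with -3.49 and -2.06. Of 24 genes named as regulators of ferroptosis 9 rose and 10 fell, with SAT1 and ATF3 both at a log2 fold change of 2.09 and HILPDA and G0S2, both of which act on lipid droplets, at -1.52 and -1.10.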

How the data were processed

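RNA was extracted in duplicate from each subline and sequenced as Illumina libraries. The authors aligned the reads to hg19 (the submitters' processing notes name CASAVA and STAR, without versions) and deposited a single table of whole-number counts, not normalized. How reads were counted, with which annotation and whether by strand is not given in the sources used here. Both 786-O-Ctrl columns have the same header and were used as replicates without a number. Counts were tested with edgeR 4.0.16 (R 4.3.3) after filterByExpr (minimum count 10, 577 genes removed) and TMM scaling, with the group as the only term. Coordinates, exon lengths and overlaps are from GENCODE v44 lifted to GRCh37, in which 12749 identifiers were found, and promoters from RefSeq. GPX1 and GPX7 were not analysed here. Alternatives were DESeq2 1.42.0, limma-voom (limma 3.58.1), RLE, library totals, other filters, binomial thinning and leaving out each library. The test was also run on simulated counts with known folds and a single dispersion for all genes, and no call here rests on that run. The named genes are all members, VHL, and up to 2 genes per direction and list by fold change. Members and lists were chosen with earlier results of these data known. The lists were written by hand. One named gene is not reported here.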

Additional observations from a re-analysis of the deposited data

How the results depend on the processing

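Over 11 alternatives for each member (10 for GPX3), 77 of 87 values kept their direction and their side of the threshold, 7 lost the call, 2 gained it and 1 reversed. The count of members that rose was 1 and became 2 with limma-voom and 2 with library totals alone, through GPX3. The count of those that fell was 5 and became 3 with library totals alone, through ACSL4 and LPCAT3, and the log2 fold change of AGPS turned to 0.072 there. That scaling moved the median of all genes by 0.13 on the log2 scale and the share of higher calls among all calls from 50.5% to 62.1%, so changes below that size depend on the scaling. With 1 library left out, 1 member rose and 4 to 5 fell, 41 to 54 of the other pathway genes rose and 61 to 78 fell. GPX4 stayed between 0.56 and 0.73 on the log2 scale over all alternatives, AIFM2 between -0.84 and -0.62, GPX8 between -0.87 and -0.67 and ACSL3 between -0.61 and -0.44. GPX3 ranged from 0.49 to 1.04 and had too few counts to be tested after thinning. The medians of the lists for hydroperoxide removal, ether lipids, coenzyme Q and regulators changed sign between alternatives, and those of the other 8 lists did not. Counts per list moved more, with 1 to 8 ether lipid genes, 3 to 8 for hydroperoxide removal, 4 to 9 for coenzyme Q, 7 to 13 for glutathione and 2 to 5 for iron called as higher, and 2 to 4 other selenoprotein genes called as higher against 4 to 9 as lower. No paired analysis was possible because both 786-O-Ctrl columns carry the same replicate number and cannot be matched to the numbers of 786-O-VHL. The counting intervals of GPX3 and LPCAT3 were wide in 786-O-VHL replicate 1, and without that library GPX3 did not pass either (0.49).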
